A study of Homo sapiens with 12 samples.

Results

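Krüppel-like factors (KLFs) are zinc finger transcription factors that share a DNA-binding domain and bind GC-rich stretches and CACCC boxes in promoters and enhancers. Outside this domain they differ: KLF9, KLF10, KLF11, KLF13 and KLF16 recruit SIN3 and histone deacetylases and mostly repress, KLF3 represses through CTBP proteins, and KLF2, KLF4 and KLF6 are mainly described as activators. In blood cells, KLF4 is known for its part in monocyte differentiation, KLF2 for quiescence of T cells and restraint of monocyte activation, and KLF13 for regulating CCL5 in T cells. These 9 genes were chosen by symbol from the 42157 genes of the count table, and 8 of them had enough reads to be tested. KLF2 did not. The members lie on different chromosomes apart from KLF2 and KLF16 on chromosome 19 and KLF4 and KLF9 on chromosome 9.

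All results come from a single established line, HL-60, which was derived from a human acute myeloid leukemia (AML), at 3 h of treatment. Cells received the vehicle dimethyl sulfoxide (DMSO), 1 µM daunorubicin (DNR), 0.5 µM ML-792, or both drugs (ML-792+DNR), with 3 replicate libraries of polyadenylated RNA per group. DNR is an anthracycline that intercalates into DNA and poisons topoisomerase II. ML-792 blocks the SUMO-activating enzyme and thereby SUMOylation, the conjugation of the small protein SUMO to other proteins, many of which are bound to chromatin. The libraries held 28647951 to 46451654 reads in genes. Levels are given as counts per M (mega) reads (CPM, scaled with TMM factors of 0.954 to 1.04), that is, as shares of a library, so that fewer cells expressing a gene and less of its RNA per cell cannot be told apart. Mitochondrially encoded transcripts took 4.01% to 6.37% of the reads in the 4 libraries of replicate 1, against 2.49% to 3.48% in the other 8. The granule enzyme gene MPO, a marker of promyelocytes such as HL-60, stood at 10085.8 to 12198.4 CPM, while ELANE, which encodes neutrophil elastase, stood at only 0.324 to 4.03 CPM. Of 13 markers of T, B, erythroid, epithelial and stromal cells, 5 (CD3E, MS4A1, HBB, HBA1 and EPCAM) had no read in any library, and the summed level of the 13 was 2.85 to 3.57 CPM in DMSO, 2.68 to 3.09 CPM in DNR, 2.47 to 3.62 CPM in ML-792 and 2.65 to 3.82 CPM in ML-792+DNR. Most of this sum was PECAM1, at 2.02 to 3.08 CPM over the libraries. CD79A was next at 0.229 to 0.757 CPM, both named after their values were seen.

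To compare levels between genes, reads were divided by the merged exon length of each gene (reads per kb per M, or mega, reads). In DMSO, KLF16 was the most abundant member at 15.2 ± 1.55 (SD, n = 3), followed by KLF13 at 8.68 ± 0.441. Next came KLF6 at 4.61 ± 0.733, KLF3 at 3.98 ± 0.287, KLF10 at 3.60 ± 0.228 and KLF11 at 3.46 ± 0.331, and in this run each gene overlapped its neighbour in the order. KLF9 stood below them at 2.55 ± 0.372. KLF4 and KLF2 were close to silent, at 0.0651 ± 0.0220 and 0.0173 ± 0.00603. The order changed with DNR. KLF10 moved from the fifth place to the first at 8.87 ± 0.440, level with KLF16 at 8.58 ± 1.40 within their ranges. KLF6 moved from the third place to the seventh at 3.34 ± 0.473, where it overlapped KLF3 and KLF9, and by the length of the longest transcript it was in the fifth place and KLF9 in the seventh. In ML-792, KLF16 and KLF13 again led at 16.6 ± 2.33 and 8.34 ± 0.823, with KLF11 next at 5.11 ± 1.50 and overlapping KLF6 at 4.93 ± 0.552. In ML-792+DNR, KLF16 led at 11.2 ± 2.26 without overlapping KLF10 at 8.50 ± 0.439, and KLF6 was lowest of the 7 abundant members at 2.07 ± 0.316.

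**Figure D1:**
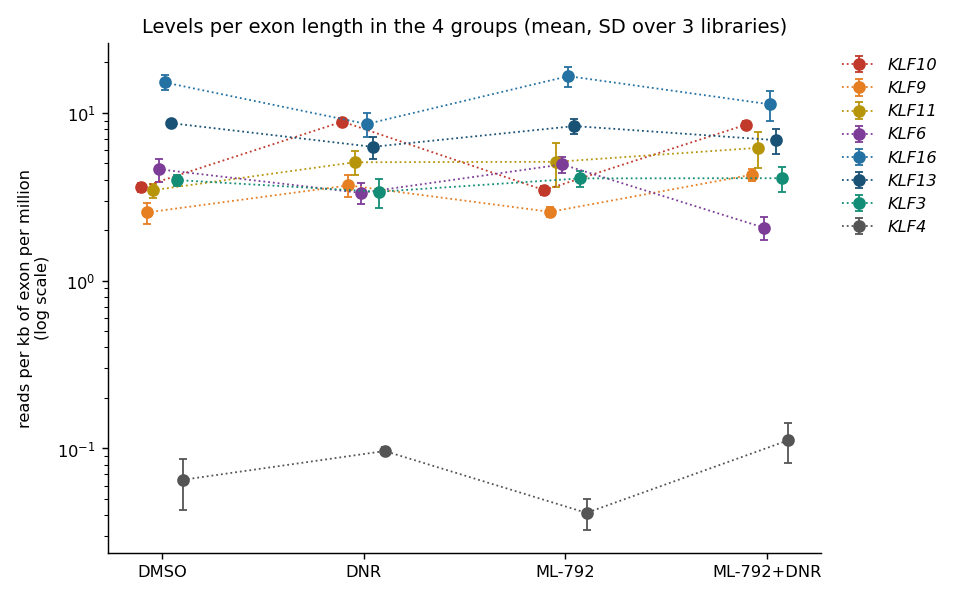
Mean level of 8 KLF genes per exon length (reads per kb per M reads, log scale) in the 4 groups; bars are SDs over 3 libraries and dotted lines only join the points of a gene. KLF10 moved from 3.60 in DMSO to 8.87 in DNR, KLF6 was lowest of the abundant members in ML-792+DNR at 2.07, and KLF4 lay far below the others throughout.

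DNR against DMSO addresses the rapid response of KLF transcripts to DNR alone. KLF10 and KLF9 rose, and KLF16, KLF13 and KLF6 fell. Differences were tested with edgeR's quasi-likelihood test over 13696 genes with Benjamini-Hochberg adjustment, and "rose" and "fell" are used for an adjusted p below 0.05. Thus 2 members rose and 3 fell of 8 tested, where 14.3% of all tested genes rose and 15.7% fell. Only KLF10 also moved by at least 2-fold, a rule that 6.98% of all tested genes met. These counts come from a fit by group. With the replicate number as a block in edgeR, KLF11 (higher, adjusted p = 0.00315) and KLF3 (lower, adjusted p = 0.0453) passed as well. For this block no share of all tested genes is given. The median log2 difference of the 8 tested members was 0.15, against 0.01 over all tested genes. The 8 include KLF4 (0.60), which passed the filter on low counts only through its level in the DNR-treated groups. Without KLF4 the middle value is that of KLF3, −0.23, so the median gives no direction for the family.

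With ML-792 alone none of the 8 tested members had an adjusted p below 0.05. Of all tested genes 0.241% did and 0.0803% also moved by 2-fold. KLF11 was the only member with an unadjusted p below 0.05, by edgeR and by DESeq2 alike. Of all 13696 tested genes, 697 had such a p by edgeR and 692 by DESeq2. With both drugs against DMSO, KLF10, KLF9 and KLF11 rose and KLF6 and KLF16 fell, that is, 3 members rose and 2 fell, where 17.0% of tested genes rose and 18.4% fell. KLF10 (higher) and KLF6 (lower) moved by at least 2-fold, as did 6.48% of tested genes. This comparison uses the same DMSO libraries as the comparison of DNR with DMSO.

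ML-792+DNR against DNR asks what SUMO inhibition adds in DNR-treated cells. No member passed an adjusted p of 0.05 in the edgeR fit by group, where 0.745% of all tested genes did and 0.197% also moved by 2-fold. KLF6 and KLF16 had an unadjusted p below 0.05 in that fit, among 1768 of all 13696 tested genes. With the replicate number as a block in edgeR, KLF6 and KLF16 had an adjusted p below 0.05, as given with each gene below. No share of all tested genes is given for the block. DESeq2 gave 1 member, KLF6, an adjusted p below 0.05, as it did 355 of all 13696 tested genes. ML-792+DNR against ML-792 shows the effect of DNR where SUMOylation is inhibited. KLF10 and KLF9 rose and KLF6 and KLF16 fell, where 16.3% of tested genes rose and 17.4% fell. Of these, KLF10 and KLF6 moved by at least 2-fold, as did 6.34% of tested genes. KLF4 was also higher past both thresholds, but it had passed the filter on low counts only through its level in the DNR-treated groups and is given as a description. In the interaction, which tests whether the DNR effect differs with ML-792, no member and no other gene passed in edgeR (0% of tested genes), with 1 member (KLF6) and 493 genes in all at an unadjusted p below 0.05. DESeq2 gave 14 genes an adjusted p below 0.05, none of them a KLF member.

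**Figure D2:**
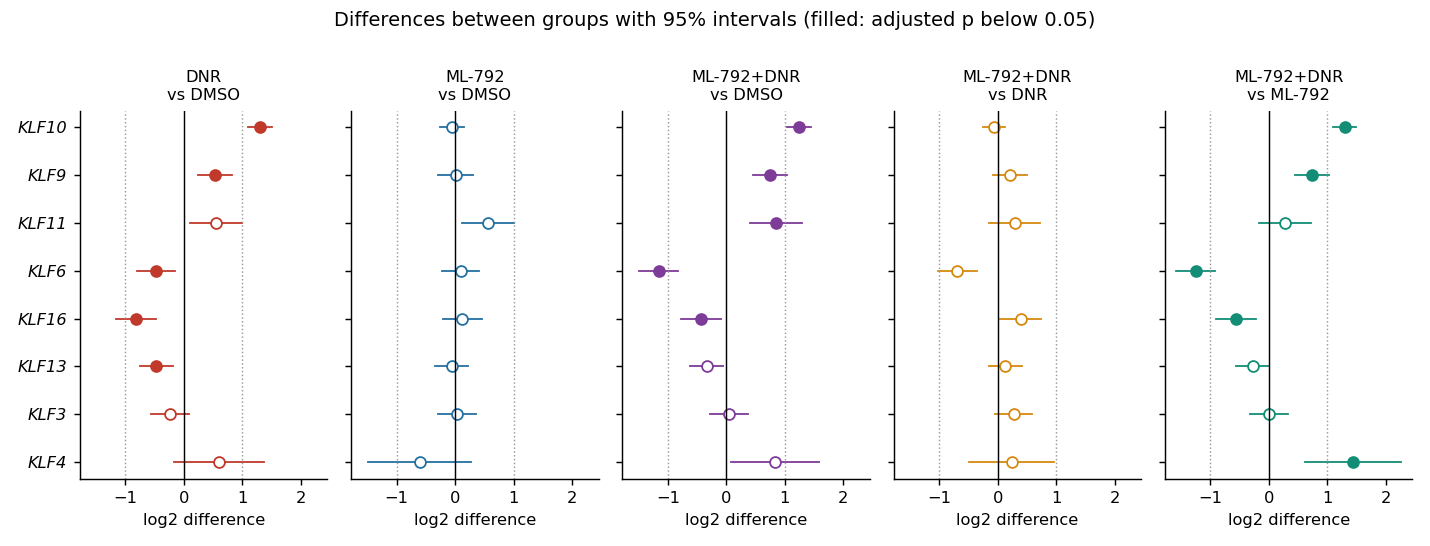
Log2 difference of each of the 8 tested KLF genes (first group minus second) in 5 comparisons, with 95% intervals of the edgeR fit; filled points have an adjusted p below 0.05 and dotted lines mark 2-fold. KLF10 lies beyond 2-fold in the 3 comparisons of a DNR-treated group with a group without DNR and at −0.06 in ML-792+DNR vs DNR, while KLF6 lies at −0.47 with DNR alone and at −1.16 with both drugs.

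KLF10 and KLF11 are the TGF-beta-inducible early genes, named for their rapid response to this cytokine. KLF10 (chromosome 8, 103661012 to 103667953 on GRCh37, minus strand) stood at 14.7, 13.5 and 13.0 CPM in DMSO replicates 1, 2 and 3 and at 34.8, 34.9 and 32.0 CPM in DNR. It stood at 14.0, 13.4 and 12.3 CPM in ML-792 and at 30.7, 34.0 and 32.7 CPM in ML-792+DNR. All 6 libraries with DNR were above all 6 without it, and within each of these sets the groups overlapped. With DNR the level was 2.47-fold that of DMSO, a log2 difference of 1.30 ± 0.09 (SE, adjusted p = 7.18e-07). In cells that also received ML-792 the effect of DNR was nearly the same size, at a log2 difference of 1.29 (adjusted p = 1.34e-06). ML-792+DNR differed from DNR by −0.06 on the log2 scale, with a 95% interval of −0.26 to 0.13 (adjusted p = 0.829), and the interaction was −0.01 with an interval of −0.29 to 0.27. KLF10 was past both thresholds in the 3 comparisons with and without DNR under every alternative setting that was run.

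KLF11 (chromosome 2, 10182976 to 10194963, plus strand) stood at 15.4, 17.6 and 14.7 CPM in DMSO, at 21.0, 27.7 and 21.3 CPM in DNR, at 23.0, 30.6 and 16.8 CPM in ML-792 and at 23.3, 36.2 and 25.8 CPM in ML-792+DNR. Replicate 2 was the highest library in every group, and ML-792 replicate 3 was the only treated library that reached into the DMSO range. With both drugs KLF11 rose by 0.84 ± 0.21 on the log2 scale (adjusted p = 0.00705). With DNR alone the log2 difference was 0.55 ± 0.21 (adjusted p = 0.0587) and with ML-792 alone 0.56 ± 0.21 (adjusted p = 0.659). The DNR value passed under DESeq2 (adjusted p = 0.0321), without a count filter (0.00601) and in a fit of the compared groups alone (0.00857). It also passed on leaving out replicate 2 (0.0369) or 3 (0.0331) of ML-792 or replicate 2 of ML-792+DNR (0.0357). The rise with both drugs had an adjusted p of 0.0506 with replicates 2 and 3 only.

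KLF9, KLF13 and KLF16 are the remaining SIN3-binding members, and they moved in opposite directions with DNR. KLF9 (chromosome 9, 72999520 to 73029573, minus strand), a gene induced by glucocorticoids and thyroid hormone, stood at 15.1, 11.2 and 13.5 CPM in DMSO and at 20.9, 15.9 and 20.9 CPM in DNR. It stood at 14.3, 12.5 and 13.3 CPM in ML-792 and at 22.6, 20.2 and 24.1 CPM in ML-792+DNR. Every library with DNR was above every library without it, although DNR replicate 2 was only just above DMSO replicate 1. KLF9 rose with DNR by 0.53 ± 0.14 on the log2 scale (adjusted p = 0.0103), with both drugs by 0.74 (adjusted p = 0.00118 against DMSO) and by 0.73 against ML-792 (adjusted p = 0.00149), each less than 2-fold. With replicates 2 and 3 only, the difference of DNR from DMSO was 0.56 with an adjusted p of 0.0579.

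KLF16 (chromosome 19, 1852398 to 1863578, minus strand), known as a regulator of dopamine receptor genes, stood at 39.7, 48.3 and 46.9 CPM in DMSO and at 20.9, 29.1 and 26.3 CPM in DNR. It stood at 41.3, 51.3 and 54.6 CPM in ML-792 and at 26.5, 39.9 and 33.6 CPM in ML-792+DNR. The DNR libraries were below all DMSO and ML-792 libraries, and ML-792+DNR lay between, with replicate 1 inside the DNR range and replicate 2 just inside the DMSO range. KLF16 fell with DNR by 0.82 on the log2 scale (SE 0.16, adjusted p = 0.00184). With both drugs the fall was 0.43 against DMSO, with an adjusted p of 0.0496 that lost the threshold when any of 6 libraries was left out, namely replicates 2 (0.129) and 3 (0.118) of DMSO, 3 of DNR (0.0643), 2 of ML-792 (0.0615), and 1 (0.187) and 3 (0.102) of ML-792+DNR. Against ML-792 it fell by 0.56 (adjusted p = 0.0165), past the threshold no longer without ML-792 replicate 2 (0.0505) or 3 (0.0506) or ML-792+DNR replicate 1 (0.0721). ML-792+DNR differed from DNR by 0.39 ± 0.16 on the log2 scale (adjusted p = 0.312). With the replicate number as a block the same difference had an adjusted p of 0.0196, and each of the 3 ML-792+DNR libraries was above the DNR library of its number.

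KLF13 (chromosome 15, 31619038 to 31727868, plus strand) stood at 77.7, 86.0 and 82.0 CPM in DMSO and at 50.4, 68.0 and 59.2 CPM in DNR. It stood at 71.7, 87.0 and 77.3 CPM in ML-792 and at 53.0, 75.3 and 66.1 CPM in ML-792+DNR. Replicate 1 was the lowest library in every group and replicate 2 the highest, and neither DNR-treated group overlapped DMSO. KLF13 fell with DNR by 0.47 on the log2 scale (SE 0.13, adjusted p = 0.0157), past the threshold no longer without DNR replicate 1 (0.0832). With both drugs the log2 difference from DMSO was −0.34 (adjusted p = 0.0596). With the replicate block it was −0.35 (adjusted p = 0.00181). It also passed under DESeq2 (0.0465), without a count filter (0.0179) and in a fit of the compared groups alone (0.0424), and without DNR replicate 1 (0.0467), DNR replicate 2 (0.0446) or ML-792+DNR replicate 2 (0.0163). Against ML-792 the log2 difference was −0.28 (adjusted p = 0.116), and it passed with the block (−0.29, adjusted p = 0.00607) and without ML-792+DNR replicate 2 (0.0309).

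KLF6 (chromosome 10, 3818188 to 3827473, minus strand), an activator that is broadly expressed and induced early in many cell types, was the tested member with the largest fall. It stood at 33.4, 24.8 and 26.8 CPM in DMSO and at 17.2, 22.7 and 21.6 CPM in DNR. It stood at 32.8, 26.4 and 31.5 CPM in ML-792 and at 10.5, 13.9 and 13.7 CPM in ML-792+DNR. The 4 groups thus fell into 3 levels: DMSO and ML-792 overlapped, DNR lay below both, and ML-792+DNR lay below DNR with no overlap. KLF6 fell with both drugs by 1.16 on the log2 scale against DMSO (SE 0.15, adjusted p = 0.000123) and by 1.25 against ML-792 (adjusted p = 8.45e-05). With DNR alone it fell by 0.47 (SE 0.15, adjusted p = 0.031).

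The last difference did not pass without DMSO replicate 1 (0.127), DNR replicate 1 (0.134) or DNR replicate 3 (0.0566). Replicate 1 held the highest KLF6 level in DMSO and the lowest in DNR, and with replicates 2 and 3 only, the log2 difference of DNR from DMSO was −0.23 (adjusted p = 0.253). The libraries of replicate 1 were also those with the higher mitochondrial shares, whose part in the result was not tested. In replicates 2 and 3 alone, the difference of both drugs from DMSO was −0.91 (adjusted p = 0.00243), less than 2-fold. ML-792+DNR differed from DNR by −0.69 ± 0.15 on the log2 scale, with a 95% interval of −1.02 to −0.36. The unadjusted p of this difference was 0.00057 and the adjusted p 0.0587 in edgeR, 0.0337 with the replicate block and 0.00209 in DESeq2, so that passing the threshold depends on the fit while the size does not (−0.68 to −0.69 in these and in the fit without a count filter). Leaving out single libraries gave −0.80 to −0.57, with an adjusted p of 0.0603 to 0.206. The interaction for KLF6 was −0.78 ± 0.21, with a 95% interval of −1.24 to −0.32, an unadjusted p of 0.00272 and an adjusted p of 0.92.

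**Figure D3:**
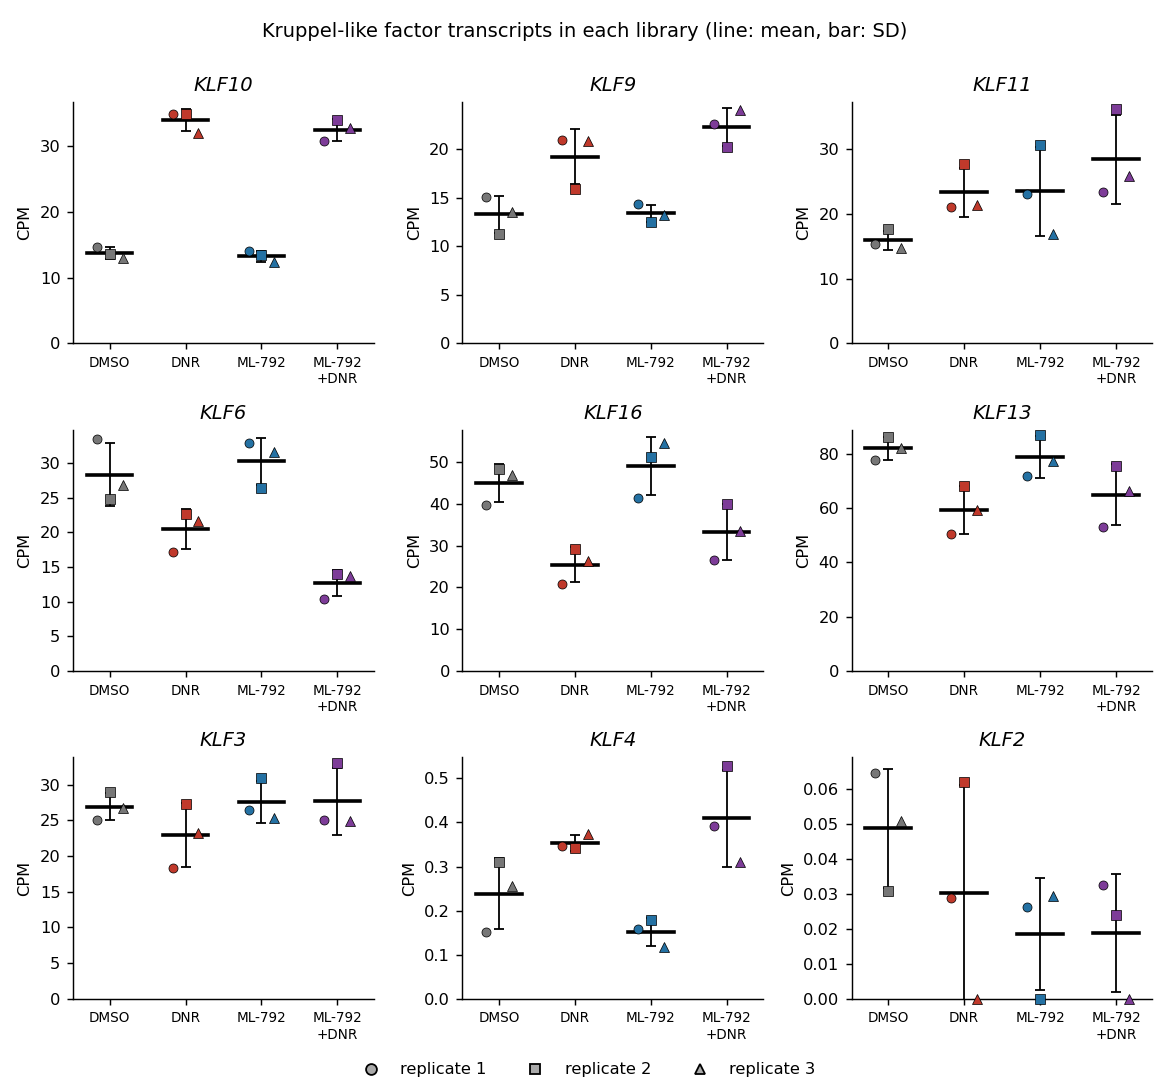
Level of each of the 9 KLF genes (CPM, linear axis from 0) in every library of the 4 groups; symbols mark replicates 1, 2 and 3, the line is the mean and the bar the SD over 3 libraries. KLF10 is above 30 CPM in all 6 libraries with DNR and below 15 CPM in the others, and KLF6 is at 10.5 to 13.9 CPM in ML-792+DNR against 17.2 to 22.7 CPM in DNR.

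KLF3 (chromosome 4, 38665818 to 38703138, plus strand), the CTBP-dependent repressor, stood at 25.1, 29.0 and 26.7 CPM in DMSO, at 18.3, 27.3 and 23.2 CPM in DNR, at 26.4, 30.9 and 25.4 CPM in ML-792 and at 25.0, 33.1 and 24.9 CPM in ML-792+DNR. All 4 groups overlapped. Its largest log2 difference between groups was 0.27 ± 0.15, in ML-792+DNR vs DNR (adjusted p = 0.49), and DNR differed from DMSO by −0.23, with a 95% interval of −0.55 to 0.09. An antisense gene, KLF3-AS1, overlaps it and had 135 reads over the 12 libraries, against 11177 for KLF3, and none of the sources used says whether strand was taken into account in counting. KLF4, KLF11 and KLF16 also overlap antisense long noncoding RNA genes of the GENCODE annotation, which were not analysed here.

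KLF4 and KLF2 were scarce. KLF4 (chromosome 9, 110247133 to 110252763, minus strand), the monocyte-promoting member, had 27, 35, 16 and 43 reads over the 3 libraries of DMSO, DNR, ML-792 and ML-792+DNR. Its level was 0.151, 0.309 and 0.255 CPM in DMSO and 0.346, 0.341 and 0.374 CPM in DNR. In ML-792 it was 0.157, 0.179 and 0.118 CPM and in ML-792+DNR 0.392, 0.527 and 0.310 CPM. All 6 libraries with DNR were above the 6 without it, the closest being ML-792+DNR replicate 3 and DMSO replicate 2. KLF4 passed the filter on low counts only through these higher levels, so that its being tested favoured a difference from the groups without DNR. As a description, ML-792+DNR was above ML-792 by 1.44 ± 0.38 on the log2 scale (adjusted p = 0.0102, and 0.0786 with replicates 2 and 3 only), a ratio of 2.80 with a 95% interval from the counts of 1.55 to 5.33. Against DMSO, DNR differed by 0.60 ± 0.36 (adjusted p = 0.226) and ML-792+DNR by 0.84 (adjusted p = 0.0741). KLF2 (chromosome 19, 16435637 to 16439496, plus strand) had 6, 3, 2 and 2 reads over the groups in the same order and at most 3 in a library. The ratio of DNR to DMSO was 0.595 with a counting interval of 0.0963 to 2.79, so that no change was detectable at this depth in either direction. A pseudogene, KLF2P2, had 74 reads, more than KLF2 itself, and reads shared between such copies could be split or lost in counting.

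Promoter sequences from RefSeq, matched to GRCh37, were examined for the GC and CACCC boxes that the family itself binds, in the 250 bases before each start that RefSeq gives. The KLF4 window and both KLF11 windows lie inside the genes as GENCODE annotates them, downstream of another annotated start. KLF2, KLF4, KLF6, KLF9, KLF11, KLF13 and KLF16 had an entry, KLF11 with 2 starts, and KLF3 had none. No window of KLF10 was examined. The members shown are the 3 that fell with DNR and KLF9, which rose, a choice made after their values were seen. Each is written 5′ to 3′ on the strand of its gene, with GC boxes (GGGCGG) and CACCC boxes (CACCC) on either strand in capitals. KLF6 is at chr10:3827474-3827651 (minus strand), the 178 bases that lie outside the annotated gene. KLF13 is at chr15:31618788-31619037 (plus strand), KLF16 at chr19:1863579-1863828 (minus strand) and KLF9 at chr9:73029574-73029823 (minus strand).
KLF6: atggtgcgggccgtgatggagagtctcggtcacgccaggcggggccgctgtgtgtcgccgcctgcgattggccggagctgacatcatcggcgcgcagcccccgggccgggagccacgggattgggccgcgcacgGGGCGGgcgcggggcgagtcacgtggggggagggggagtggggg
KLF13: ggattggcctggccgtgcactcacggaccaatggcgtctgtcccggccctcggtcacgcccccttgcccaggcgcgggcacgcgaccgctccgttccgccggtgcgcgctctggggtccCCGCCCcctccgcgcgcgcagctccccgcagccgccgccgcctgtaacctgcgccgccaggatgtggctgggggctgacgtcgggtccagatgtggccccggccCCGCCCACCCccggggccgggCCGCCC
KLF16: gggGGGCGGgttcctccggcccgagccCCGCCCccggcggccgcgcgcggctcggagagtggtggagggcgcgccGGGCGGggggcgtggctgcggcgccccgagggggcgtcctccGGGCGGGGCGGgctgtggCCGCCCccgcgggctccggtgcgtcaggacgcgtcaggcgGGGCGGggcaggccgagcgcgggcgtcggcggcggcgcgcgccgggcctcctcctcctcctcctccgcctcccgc
KLF9: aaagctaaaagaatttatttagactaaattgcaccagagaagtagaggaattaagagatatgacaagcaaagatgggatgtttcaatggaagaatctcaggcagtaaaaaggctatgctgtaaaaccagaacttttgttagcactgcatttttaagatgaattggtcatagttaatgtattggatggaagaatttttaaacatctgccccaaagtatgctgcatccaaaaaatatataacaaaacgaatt

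The promoters of the falling members were GC-rich, at 72.4% for the whole KLF6 window, 78.8% for KLF13 and 86.4% for KLF16, while the KLF9 window was AT-rich with a GC content of 32.4%. The KLF16 window held 7 GC boxes, some of them overlapping, KLF13 held 3 GC boxes with 1 CACCC box overlapping a GC box, and the whole KLF6 window held 2 GC boxes. KLF9 held neither of these letters. Of 35116 RefSeq promoters of the same length, 42.6% held a GC box and 54.7% a CACCC box. CCAAT, read on both strands, was present in 2 copies each in KLF6, KLF9 and KLF13 and in 32.0% of all promoters. The examined windows not shown were GC-rich as well (at least 69.2%). Among them were those of KLF11, which rose with both drugs, at 78.8% and 74.4%. They held 4 GC boxes in KLF2 and, within the annotated genes, 4 in KLF4 and 2 and 6 in the windows of KLF11. The GC content of all RefSeq promoters was not determined. These matches describe the letters of the windows only.

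The other KLF genes and the SP genes, which carry the same type of zinc fingers, were listed for comparison (17 genes, 10 tested). In DNR against DMSO 2 of them rose and 1 fell, where 14.3% of all tested genes rose and 15.7% fell. KLF5, an activator of proliferation and inflammatory genes, rose from 13.7 ± 1.61 CPM (SD, n = 3) to 52.4 ± 4.46 CPM, a log2 difference of 1.93 ± 0.12 (adjusted p = 3.59e-07), larger than that of any of the 8 tested members, and stood at 64.4 ± 8.56 CPM in ML-792+DNR. Named after their values were seen, SP4 rose by 0.70 (adjusted p = 0.000223) and KLF12, a CTBP-binding repressor like KLF3, fell by 0.54 on the log2 scale (adjusted p = 0.0015). In ML-792+DNR against DMSO 3 rose and 4 fell, where 17.0% of all tested genes rose and 18.4% fell. In ML-792+DNR against DNR none passed, where 0.745% of all tested genes did, and KLF5 differed by 0.30 (adjusted p = 0.298). SP1, the abundant GC-box factor of most cells, also named after its values were seen, stood at 155 CPM in DMSO, 139 CPM in DNR, 148 CPM in ML-792 and 111 CPM in ML-792+DNR.

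Of 10 corepressors and coactivators that KLF proteins bind, 4 fell and none rose with DNR, where 15.7% of all tested genes fell and 14.3% rose. With both drugs against DMSO 6 fell and 1 rose, where 18.4% fell and 17.0% rose, and none reached 2-fold in either comparison. Their median log2 difference was −0.13 with DNR and −0.43 with both drugs, against 0.01 and 0.02 over all tested genes. The most abundant were the deacetylase genes HDAC1, at 343.6 CPM in DNR and 364.1 CPM in DMSO, and HDAC2, at 281.4 and 266.1 CPM. In ML-792+DNR against DNR 1 of the 10 fell, where 0.745% of all tested genes passed in either direction. This was the acetyltransferase gene EP300, named after its values were seen, which fell by 0.39 on the log2 scale (adjusted p = 0.0302).

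In the ERK5 and MEF2 pathway, which induces KLF2 and KLF4 in other cell types, 10 genes were tested. With DNR 1 of them rose and 2 fell, beside 14.3% and 15.7% of all tested genes. The most abundant members of this pathway over the 12 libraries were the kinase gene MAP3K2 (log2 difference 0.23 with DNR) and MEF2A (0.09). MEF2D, named after its values were seen, fell from 48.6 to 24.7 CPM with DNR (log2 difference −0.98, adjusted p = 2.51e-05) and to 20.5 CPM with both drugs, and KLF2 and KLF4 themselves had few reads in all groups. In the TGF-beta and SMAD pathway, through which KLF10 and KLF11 are induced, 12 genes were tested. With DNR 1 of them rose and 3 fell, beside 14.3% and 15.7% of all tested genes. TGIF1, a SMAD corepressor, fell by 1.16 on the log2 scale (adjusted p = 1.49e-06) and was higher in ML-792+DNR than in DNR by 0.45 (adjusted p = 0.0396). With both drugs against DMSO none of the 12 rose and 6 fell, beside 17.0% and 18.4% of all tested genes.

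Of the glucocorticoid response, to which KLF9 belongs, 7 genes were tested. With DNR 2 rose and 3 fell, beside 14.3% and 15.7% of all tested genes. SGK1, a kinase gene, went up from 0.539 to 10.8 CPM by a log2 difference of 4.31 (adjusted p = 3.79e-06). The phosphatase gene DUSP1 went up from 0.111 to 0.880 CPM (log2 difference 2.95, adjusted p = 4.87e-05). DUSP1 passed the filter on low counts only through its level in the DNR-treated groups, and its values are given as a description. ZBTB16 fell from 1.72 to 0.605 CPM (log2 −1.51, adjusted p = 0.00612). The receptor gene NR3C1, named after its values were seen, was also among the 3 that fell (log2 −0.57, adjusted p = 0.000192). Of 12 reported target genes of KLF proteins 7 could be tested. With DNR 2 rose and 1 fell, beside 14.3% and 15.7% of all tested genes. CCL5, which KLF13 activates in T cells, rose from 20.6 to 68.0 CPM (log2 difference 1.73, adjusted p = 1.5e-06) and was lower in ML-792+DNR than in DNR, at 40.9 CPM (log2 −0.73, adjusted p = 0.0246). KLF13 itself fell with DNR, and its log2 difference between the last pair of groups was 0.13, with a 95% interval of −0.15 to 0.41. CDKN1A, which encodes the cell cycle inhibitor p21, was counted among those that rose, from 0.0973 to 0.649 CPM (log2 difference 2.74, adjusted p = 0.000385). It was a scarce transcript throughout. Like KLF4, CDKN1A passed the filter on low counts only through its level in the DNR-treated groups, and its values are given as a description. Among the promyelocyte markers 4 of 9 fell with DNR and none rose, where 15.7% of all tested genes fell and 14.3% rose. MYB, a progenitor transcription factor, fell from 396 to 173 CPM (log2 −1.20, adjusted p = 6.12e-05). The granule protein genes MPO, ELANE, AZU1, PRTN3 and CTSG, named here after their values were seen, did not pass (adjusted p of 0.334 to 0.991).

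For the members that passed 2-fold in any comparison, the genes with the most similar course were sought among 9613 genes of at least 5 mean CPM in some group, by the root mean square difference of log2 CPM over the 12 libraries after subtracting the DMSO mean of each gene. The closest to KLF10 were PELI1, which encodes a ubiquitin ligase of Toll-like receptor signalling (0.14), and ZSWIM3 (0.17). PELI1 and ZSWIM3 were at log2 differences of 1.47 and 1.30 with DNR and of −0.38 and −0.22 for ML-792+DNR vs DNR, where KLF10 was at −0.06. The closest to KLF6 were the zinc finger gene ZNF136 (0.16) and RIF1, which acts in DNA repair and replication timing (0.17), at log2 differences of −0.46 and −0.66 with DNR and of −0.53 and −0.40 for ML-792+DNR vs DNR. The closest to KLF4 were HYAL3, a hyaluronidase gene (0.24), and SMOX, which encodes spermine oxidase (0.28), and since KLF4 had few reads this likeness is loose. The replicates are shared by all genes, and no test was made of these likenesses.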

How the data were processed

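Per the study's methods, single-end reads came from 3 independent experiments. Mapping to GRCh37 used TopHat2 2.1.1 (with Bowtie2 2.3.5.1), and the raw counts that the authors deposited were made with HTSeq 0.11.1. Cufflinks 2.2.1, Picard and DESeq2 are further tools in the submitters' processing notes. The deposited normalized signal equals the counts divided by 1 factor per library (0.843 to 1.33) and was not used otherwise. The authors' deposited DESeq2 comparisons (log2 fold changes and adjusted p-values) were not used. The 5 counter lines were left out, and they held 32.6% to 34.7% of the records. Counts per gene were tested with edgeR 4.0.16 in R 4.3.3 (filterByExpr by group, minimum count 10, minimum total 15; TMM; quasi-likelihood test, group term, all 12 libraries) after a check on simulated data. A gene rose or fell at an adjusted p below 0.05, and it was called where it also changed by at least 2-fold. Levels per length use merged GENCODE exons. Intervals from counts are exact and cover counting error only. With 3 libraries per group the smallest exact permutation p is 0.1, so that test was not used.

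The members and lists were chosen with earlier results of these data known. Named were all members, up to 4 called genes of each list (else its 2 most abundant) and the 2 genes most like each called member; other names were chosen after their values were seen, as said beside them. Same-numbered libraries deviated together (r of 0.0722 to 0.587 for 18 pairs, −0.498 to 0.0913 for 36 others). Each of the 12 libraries correlated best with its own number in each other group. Values with a replicate block stand beside results where every pair of a comparison exceeded 0.1. DNR vs DMSO did not meet this (lowest r 0.0852), and its block values are given only for KLF11 and KLF3, which crossed the threshold. The alternatives were size factors by median of ratios, DESeq2 1.42.0, no count filter, the block, the compared groups alone, no fold minimum, the longest transcript, each library left out, and replicates 2 and 3 only.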

Additional observations from a re-analysis of the deposited data

How the results depend on the processing

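Of 855 values of the members under alternatives, 790 kept their direction and their side of an adjusted p of 0.05, 18 lost and 21 gained the threshold, and 26 changed sign. The calls for KLF10, and those for KLF6 with both drugs, kept an adjusted p below 0.05 in every setting. Without a fold minimum, 2 members were higher and 3 lower in DNR vs DMSO, 3 higher and 2 lower in ML-792+DNR vs DMSO, and 2 lower in ML-792+DNR vs ML-792. With replicates 2 and 3 only, 0 members were lower by 2-fold in ML-792+DNR vs DMSO and 1 was higher in ML-792+DNR vs ML-792. Ordered by the longest transcript, 5 of 9 genes kept their rank in ML-792+DNR.

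Values that changed sign were all near 0. Without a count filter they were KLF9 in ML-792 vs DMSO (−0.0070) and the KLF10 interaction (0.015), with the replicate block KLF3 in ML-792+DNR vs ML-792 (−0.0024), and with replicates 2 and 3 only KLF10 in ML-792+DNR vs DNR (0.0018) and its interaction (0.046). Leaving out single libraries gave ranges across 0 for the KLF10 interaction (−0.060 to 0.039), KLF3 in ML-792 vs DMSO (−0.056 to 0.091), ML-792+DNR vs DMSO (−0.11 to 0.11) and ML-792+DNR vs ML-792 (−0.15 to 0.095), KLF4 in ML-792+DNR vs DNR (−0.0071 to 0.39), KLF9 in ML-792 vs DMSO (−0.093 to 0.11) and KLF13 in ML-792 vs DMSO (−0.14 to 0.0045). The cause was not tested.

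In DNR vs DMSO, where replicate numbers were not taken as pairs (lowest r 0.0852), the replicate block gave KLF11 a log2 difference of 0.54 (adjusted p = 0.00315) and KLF3 one of −0.24 (adjusted p = 0.0453). Apart from these and the values beside the results, the block moved no member across the threshold. Depth limits KLF2 and KLF4, with 2 to 6 and 16 to 43 reads per group.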
